A study of Mus musculus with 4 samples.

Results

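The genes described here are 10 genes of osteoclast differentiation and cell fusion, Nfatc1, Tnfrsf11a, Mitf, Ocstamp, Dcstamp, Atp6v0d2, Calcr, Oscar, Car2 and Acp5, out of 24422 named genes in the count tables. They were taken by name, with 1 RefSeq transcript per gene, the one with the highest mean raw count. RNA was sequenced from RAW 264.7 cells, an established mouse macrophage line that forms osteoclasts when given the cytokine RANKL. Of the 4 libraries, 2 were made from cells with a stably held empty plasmid, pcDNA 3.1(+), and 2 from cells stably expressing the long noncoding RNA Dnm3os. All 4 were grown in medium with 5.5 mmol/L glucose and are labelled passages 3 to 6. The labels name no RANKL treatment in either group, and they do not say whether the stable cells were clones or pools. Separate cultures within a group are not stated either, so the p-values measure only the spread between these libraries, which may be technical.

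Osteoclasts are the cells that resorb bone. They form when macrophage precursors receive the growth factor M-CSF through Csf1r and RANKL through its receptor RANK, the product of Tnfrsf11a. RANK signalling, with calcium signals from receptors that couple to immunoreceptor adaptors, induces the transcription factor Nfatc1, the master regulator of the lineage, which acts with Mitf, PU.1 (Spi1) and AP-1 on fusion and resorption genes. The cells then fuse, attach to bone, secrete acid through the vacuolar proton pump and release proteases such as cathepsin K (Ctsk).

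Library totals over 1 transcript per gene ranged from 29416272 to 39769640 counts. Dnm3os had 0 counts in both empty vector libraries and 208 and 260 in the Dnm3os libraries. All 8 macrophage markers examined were present in every library, with a summed level of 9606 to 9769 CPM (counts per 1000000 counts of the scaled library) with empty vector and 10499 to 10969 CPM with Dnm3os. Most of that sum is lysozyme (Lyz2), and the single markers moved in both directions: 4 were called higher, Itgam (1.01 ± 0.04 on the log2 scale, Dnm3os over empty vector), Fcgr1 (0.75 ± 0.05), Csf1r (0.27 ± 0.03) and Lyz2 (0.15 ± 0.03), 2 were called lower, Adgre1 (-0.30 ± 0.04) and Cd68 (-0.11 ± 0.03), and Cd14 and Spi1 did not pass. Of 4 B cell markers 2 were at 0 throughout, as were 2 of 4 T cell markers, 2 of 4 neutrophil markers and 1 of 8 stromal and osteoblast markers, and the summed level of each of these lists was at most 7.07 CPM in any library. The 4 dendritic cell markers summed to 6.87 to 7.72 CPM with empty vector and 12.4 to 12.7 CPM with Dnm3os, with Flt3 at 0 throughout and the integrin gene Itgax, which macrophages also express, at 265, 271, 356 and 429 counts. The part of these shifts in the results below was not tested.

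Most of the expressed osteoclast genes were lower in cells carrying Dnm3os. Of the 10, 8 had enough counts to be tested, and of these 6 fell (Nfatc1, Mitf, Dcstamp, Ocstamp, Atp6v0d2 and Car2), 1 rose (Acp5) and 1 did not pass the test (Tnfrsf11a), by edgeR's quasi-likelihood test with a Benjamini-Hochberg adjusted p under 0.05 over 13172 genes. Over all genes tested, 5.75% were called lower, 6.51% higher and 12.3% in either direction. The median log2 fold change (Dnm3os over empty vector) was -0.30 over the 8 genes and 0.00061 over all genes tested. The 10 genes were chosen with earlier results of these data known, so these contrasts do not measure how unusual the set is. Of the 7 calls, 6 were under 2-fold. Both Dnm3os libraries lay below both empty vector libraries for 6 of the 8 and above both for 1, as they did for 25.0% and 26.2% of all genes tested.

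**Figure D1:**
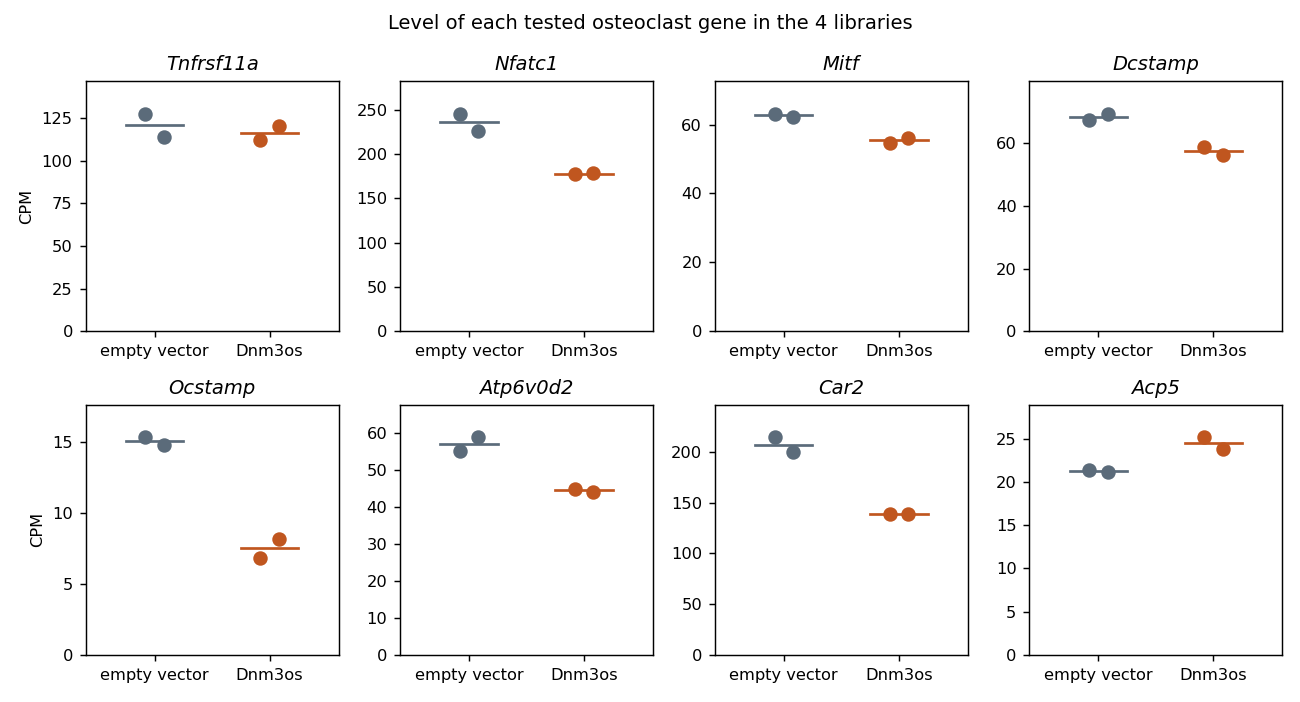
Level in CPM (vertical axes, each starting at 0) of the 8 tested osteoclast genes in the 2 empty vector libraries (grey) and the 2 Dnm3os libraries (orange), with bars at group means. The groups are apart for all but Tnfrsf11a; Acp5 is the gene with higher values in the Dnm3os libraries.

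Tnfrsf11a encodes RANK, the receptor at the head of the pathway. It was at 128 and 114 CPM in empty vector libraries 1 and 2 and at 112 and 121 CPM in Dnm3os libraries 1 and 2. The groups overlapped, and the log2 fold change was -0.054 ± 0.057 (SE), with adjusted p = 0.673 by edgeR. The empty vector libraries stood further apart than the group means, and which of them was used set the outcome. Without empty vector library 2, Tnfrsf11a was lower at -0.13 and passed the threshold (adjusted p = 0.0204 by edgeR), and without empty vector library 1 its value was 0.025 (adjusted p = 0.826 by edgeR). Tnfrsf11a was thus the one tested gene of the 10 whose sign differed between settings.

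Nfatc1, the calcium- and RANK-dependent transcription factor, was at 245 and 226 CPM with empty vector and at 177 and 178 CPM with Dnm3os. Both Dnm3os libraries lay below both empty vector libraries. The mean fell from 236 ± 13.7 to 178 ± 0.698 CPM (SD, n = 2 per group), which is 24.7% lower and a log2 fold change of -0.41 ± 0.04 (SE; adjusted p = 6.9e-08 by edgeR). Of the genes tested, 3.92% had a more negative log2 fold change. Nfatc1 has 6 RefSeq transcripts in the tables whose counts overlap, and each of them was lower, with log2 ratios of mean CPM from -0.42 to -0.37. The transcript with the fewest counts was set against the most abundant one. It held 66.9% and 67.3% of that count in the empty vector libraries and 68.5% and 68.3% in the Dnm3os libraries. Since the counts overlap, these values do not show how each transcript moved on its own.

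Mitf, a transcription factor of the basic helix-loop-helix family that acts with PU.1 on osteoclast genes, was at 63.2 and 62.3 CPM with empty vector and at 54.6 and 56.1 CPM with Dnm3os. The groups did not overlap and the fall was small, 11.7% or -0.18 ± 0.04 (adjusted p = 0.00686 by edgeR). This call was lost by DESeq2 (adjusted p = 0.11) and without Dnm3os library 1 (adjusted p = 0.0827 by edgeR). All 3 Mitf transcripts in the tables were lower, with log2 ratios of mean CPM from -0.18 to -0.17. The less abundant ones held 92.0% to 98.5% of the count of the most abundant one, so these may largely be the same reads.

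Dcstamp and Ocstamp encode the related multipass membrane proteins DC-STAMP and OC-STAMP, which osteoclast precursors need to fuse into multinucleate cells. Dcstamp was at 67.5 and 69.5 CPM with empty vector and at 58.9 and 56.2 CPM with Dnm3os. It was lower in both Dnm3os libraries, by 16.0% or -0.25 ± 0.04 (adjusted p = 0.000253 by edgeR). Its 5 transcripts share most of their reads, and each had a log2 ratio of mean CPM of -0.25. Ocstamp had 612 and 524 counts with empty vector and 202 and 280 with Dnm3os, or 15.3 and 14.8 against 6.86 and 8.16 CPM. It had the largest relative fall of the 10 genes, 2.00-fold, and fell by 1.00 ± 0.09 on the log2 scale (adjusted p = 5.27e-08 by edgeR). Of the genes tested, 0.752% had a more negative log2 fold change. The Dnm3os libraries differed from each other, and the log2 fold change of Ocstamp was -0.89 without Dnm3os library 1 and -1.14 without Dnm3os library 2, called in both cases.

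Atp6v0d2 and Car2 serve acid secretion. Atp6v0d2 encodes the d2 subunit of the membrane part of the vacuolar proton pump, a form enriched in osteoclasts and also needed for fusion. It was at 55.0 and 58.7 CPM with empty vector and at 44.8 and 44.1 CPM with Dnm3os. Both Dnm3os values were below both empty vector values, with a fall of 21.8% or -0.35 ± 0.05 (adjusted p = 1.36e-05 by edgeR). Car2 encodes carbonic anhydrase 2, which supplies the protons. It was at 214 and 199 CPM with empty vector and at 138.9 and 139.2 CPM with Dnm3os. Car2 fell by 0.57 ± 0.04 on the log2 scale, or 32.8%, and had the smallest adjusted p of the 10 genes (5.77e-11 by edgeR).

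**Figure D2:**
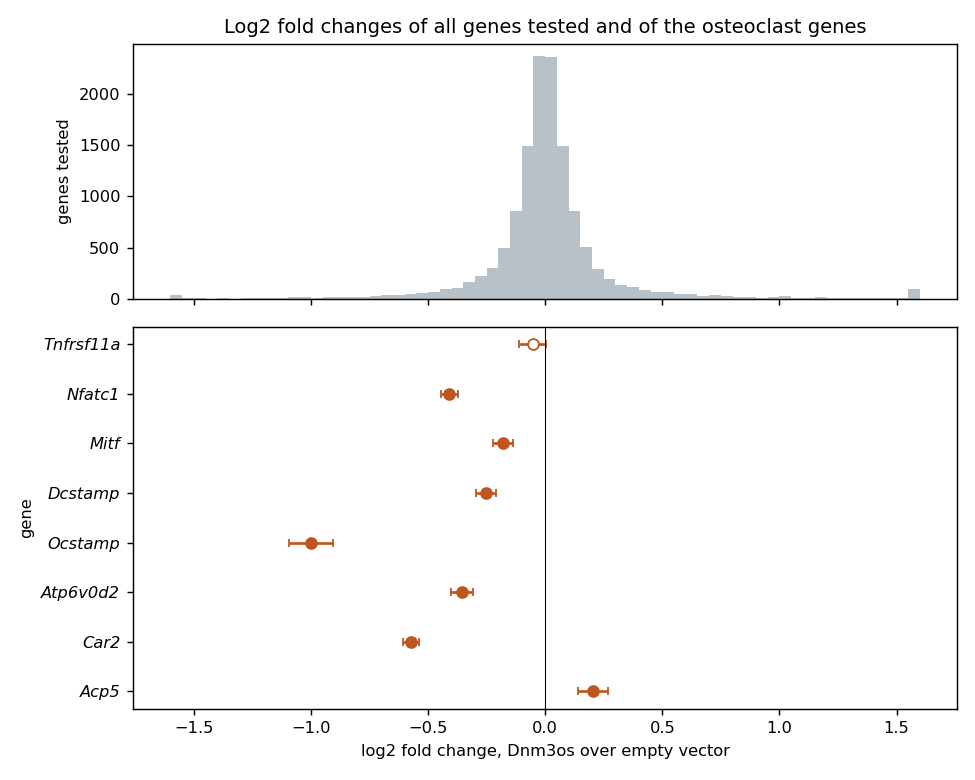
Upper panel, number of genes tested at each log2 fold change (Dnm3os over empty vector; genes beyond the axis are in the end bars). Lower panel, the 8 tested osteoclast genes with bars of 1 SE, filled where the adjusted p is under 0.05; Ocstamp lies farthest to the left, Car2 lies at -0.57, and Acp5 alone lies to the right, at 0.20.

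Acp5 encodes tartrate-resistant acid phosphatase, the enzyme stained to identify osteoclasts. It was at 21.4 and 21.1 CPM with empty vector and at 25.2 and 23.8 CPM with Dnm3os. Both Dnm3os libraries were higher, by a log2 fold change of 0.20 ± 0.06 (adjusted p = 0.0422 by edgeR), close to the threshold. The rise was not called by DESeq2 (adjusted p = 0.438), nor when any 1 of the 4 libraries was left out (adjusted p from 0.0891 to 0.311 by edgeR), with a value between 0.16 and 0.24. Exons of Acp5 overlap those of 6530413G14Rik, a noncoding gene on the other strand, and the strand setting of the counts is not given in the sources used here, so reads of the pair could not be told apart.

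Acp5 and cathepsin K are often named as joint targets of Nfatc1, Mitf and PU.1. In the analysis reported their values moved in opposite directions, with the call of Acp5 lost in the settings named above. As a description, 250 bases of each gene are shown, 5′ to 3′, from RefSeq on GRCm38.p6. They lie before an annotated start of Acp5 (chr9:22130599-22130848, minus strand) and before the start of Ctsk (chr3:95498960-95499209, plus strand). Capitals mark the M-box word TCATGTG in Acp5 and the PU-box word GAGGAA in Ctsk, on either strand. The marked word was set by gene, and matches of other words are not capitalised. The other Acp5 windows, not shown, held no TCATGTG.
Acp5: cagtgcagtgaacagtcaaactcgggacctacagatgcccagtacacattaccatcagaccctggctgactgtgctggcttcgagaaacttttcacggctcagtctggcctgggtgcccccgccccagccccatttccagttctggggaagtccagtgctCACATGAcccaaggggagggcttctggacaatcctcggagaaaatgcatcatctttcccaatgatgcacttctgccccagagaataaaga
Ctsk: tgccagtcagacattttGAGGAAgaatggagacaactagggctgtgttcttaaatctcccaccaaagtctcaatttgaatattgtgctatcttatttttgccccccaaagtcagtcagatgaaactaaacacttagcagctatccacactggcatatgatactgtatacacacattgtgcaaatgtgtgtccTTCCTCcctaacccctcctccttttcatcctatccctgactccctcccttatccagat

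The words TCATGTG, bound by Mitf and its relatives, GAGGAA, the core of PU.1 sites, GGAAA, the core of NFAT sites, and TGANTCA, the AP-1 site, were searched on both strands. GAGGAA and GGAAA can share bases. The Acp5 window held 1 TCATGTG, beginning 90 bases before the start, and GGAAA at 117 and 37 bases, and the Ctsk window held GAGGAA at 233 and 58 bases. Of 32851 RefSeq windows of that length, 3.25% held TCATGTG, 23.3% GAGGAA, 55.6% GGAAA and 6.75% TGANTCA. The windows counted by gene were 10 for 5 of the 10 genes (Acp5, Calcr, Mitf, Oscar and Tnfrsf11a). Windows of Nfatc1 were left out of this count, and none was available for Ocstamp, Dcstamp, Atp6v0d2 and Car2. Among these 10, TCATGTG was found in the Acp5 window shown, GAGGAA in that of Oscar, GGAAA in 7 windows of Acp5, Calcr, Mitf and Oscar, and TGANTCA in none. Acp5 has 3 annotated starts, and since the counts of its transcripts differ by under 5%, the start in use could not be read from them. Matches of words are descriptions of the sequence and not evidence of binding.

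Calcr, the calcitonin receptor and a marker of mature osteoclasts, had 0 counts throughout, for each of its 2 transcripts in every library. A count of 0 allows up to 3 counts, or 0.0754 to 0.102 CPM by library, for counting error only. Oscar, an immunoglobulin-like receptor that costimulates osteoclast formation, had 2 and 4 counts with empty vector and 1 and 3 with Dnm3os. With totals of 6 and 4 counts per group, the exact Poisson 95% intervals were 2.20 to 13.1 and 1.09 to 10.2, and a difference was not detectable at this depth. Both were left out of the fit by its filter on low counts. With no such filter Oscar did not pass (adjusted p = 0.928 by edgeR), and DESeq2 gave it no adjusted p.

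**Figure D3:**
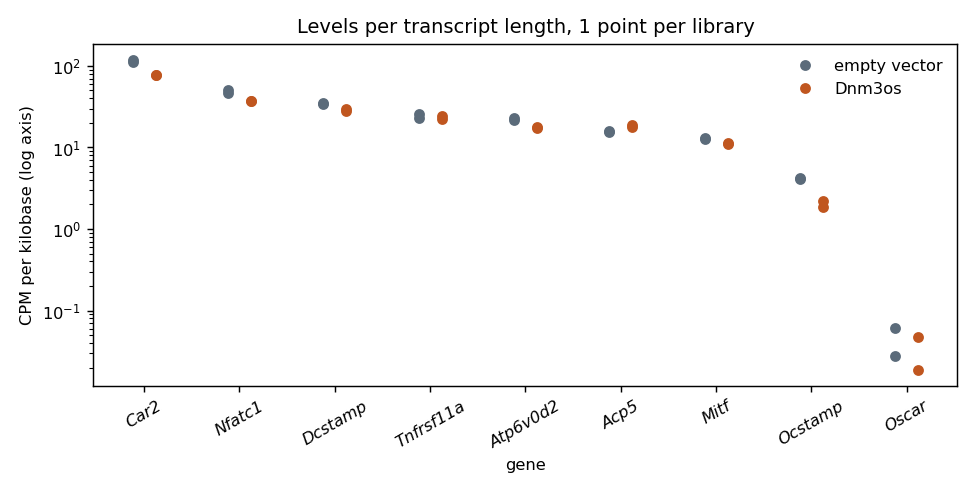
Level per transcript length (CPM per kilobase, log axis) of the 8 tested genes and Oscar, 1 point per library, ordered by the empty vector mean. Car2 is the most abundant at 116 CPM per kilobase with empty vector, and Oscar is at the lower end.

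Per kilobase of transcript, with lengths from GENCODE release M21, the empty vector means ran from Car2 (116 CPM per kilobase) through Nfatc1 (49.2), Dcstamp (34.3), Tnfrsf11a (24.1), Atp6v0d2 (22.4), Acp5 (15.8) and Mitf (12.8) to Ocstamp (4.12). Tnfrsf11a and Atp6v0d2 overlapped in the empty vector libraries, and the other neighbours in this order did not. In the Dnm3os libraries the means were 77.8 for Car2, 37.0 for Nfatc1, 28.8 for Dcstamp, 23.2 for Tnfrsf11a, 18.2 for Acp5, 17.5 for Atp6v0d2, 11.3 for Mitf and 2.05 for Ocstamp CPM per kilobase. Acp5 and Atp6v0d2 had changed places, and their libraries overlapped. With bulk RNA, fewer cells that express a gene and less RNA per cell cannot be told apart.

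Genes whose 4 values followed most closely those of Car2, which had the smallest adjusted p of the 10, and of Nfatc1, which had the highest mean CPM, were sought among 9978 genes with a mean of at least 5 CPM, by the Euclidean distance between log2 CPM values centred on each gene's mean over the 4 libraries. For Car2 these were Apol9a (distance 0.0269), Rcan1 (0.0501) and Adamtsl5 (0.0740). Apol9a has a near copy, Apol9b, with which reads may be shared. Rcan1, an inhibitor of the phosphatase calcineurin and itself a target of NFAT, was at 62.4 and 59.1 CPM with empty vector and 42.4 and 41.8 CPM with Dnm3os. For Nfatc1 they included Mir7117 (0.0349) and Ninl (0.0429). Mir7117 is a microRNA gene, and whether the reads counted for it come from the microRNA was not tested. With 4 libraries, such likeness describes these values and nothing more.

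Of 70 other genes of the osteoclast pathway, listed by role, 67 could be tested, and 11 were higher and 16 lower, with a median log2 fold change of -0.03. That is a share of calls above the 12.3% of all genes, split between both directions. This share was not compared with that of genes at a similar level of counts. These lists too were chosen with earlier results of these data known. DESeq2 called 7 higher and 12 lower, and 7 were higher without Dnm3os library 1.

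In RANK and M-CSF signalling, 2 of 20 tested genes rose, 3 fell and 15 did not pass. Csf1r, the M-CSF receptor, rose from 624 ± 19.0 to 752 ± 18.4 CPM (0.27 ± 0.03 on the log2 scale, with adjusted p = 4.98e-07 by edgeR). Tec, a kinase that links RANK to calcium release, rose from 38.5 ± 2.20 to 50.6 ± 1.19 CPM (0.39 ± 0.05). Rcan1 fell from 60.7 ± 2.31 to 42.1 ± 0.431 CPM (-0.53 ± 0.05), and Src, the kinase required for the resorbing cell surface, from 26.9 ± 0.701 to 19.7 ± 0.092 CPM (-0.45 ± 0.06). The third gene that fell was the lipid-sensing receptor Trem2 (-0.16 ± 0.03). Traf6, the adaptor of RANK, was at 33.8 ± 0.077 and 30.3 ± 1.55 CPM and did not pass (adjusted p = 0.0776 by edgeR). Tnfsf11 (RANKL) and its decoy receptor Tnfrsf11b had 0 counts in all 4 libraries. Without empty vector library 2, 4 genes of this list were higher.

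Among 15 transcription factors that promote osteoclast formation, 3 rose, 3 fell and 9 did not pass. Fosl2 (-0.34 ± 0.03) and Fos (-0.23 ± 0.05), which encode AP-1 subunits, fell, as did a further subunit gene, Fosl1 (-0.20 ± 0.06), while Jun, their dimer partner, rose (0.14 ± 0.04). The calls of Fosl1 and Jun were lost in DESeq2 (adjusted p = 0.2 and 0.285), without either Dnm3os library, and for Fosl1 without empty vector library 1 and for Jun without empty vector library 2 and with isoforms summed (adjusted p = 0.057 by edgeR). Tfec, a relative of Mitf, had 38 and 32 counts with empty vector and 58 and 63 with Dnm3os (1.03 ± 0.23), and Prdm1, the repressor Blimp1, had 4 and 5 against 11 and 32 counts (2.45 ± 0.55). Both rises rest on few counts and were not called by DESeq2 (adjusted p = 0.166 and 0.101), Tfec was lost without Dnm3os library 1 (adjusted p = 0.0596 by edgeR), and Prdm1 was lost without Dnm3os library 2 (1.61; adjusted p = 0.279 by edgeR). Fos was lost without Dnm3os library 2 (adjusted p = 0.0528 by edgeR). Spi1, which encodes PU.1, was at 296 ± 9.50 and 289 ± 8.26 CPM and did not pass (adjusted p = 0.663 by edgeR). The list had 1 gene higher without either Dnm3os library, and 1 lower without Dnm3os library 2.

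Of 5 transcription factors that restrain osteoclast formation, 2 rose, 0 fell and 3 did not pass. Irf8, which blocks Nfatc1 function, rose from 16.9 ± 0.654 to 26.0 ± 0.829 CPM (0.62 ± 0.07 with adjusted p = 4.98e-07 by edgeR), with no overlap between the groups. The inhibitor of DNA binding Id1 was at 9.34 ± 1.76 and 12.9 ± 0.539 CPM (0.46 ± 0.11), a rise that was not called in DESeq2. Leaving out empty vector library 2 also ended this call (0.29), and so did leaving out 1 of the Dnm3os libraries (0.50 and 0.42), so that each of these settings left 1 gene of the list higher. The 0 lower stayed 0 under every one of the 15 alternatives; at an unadjusted p under 0.05, it was 0 in the analysis reported, in DESeq2 and in limma-voom, and 1 under 7 of the alternatives.

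**Figure D4:**
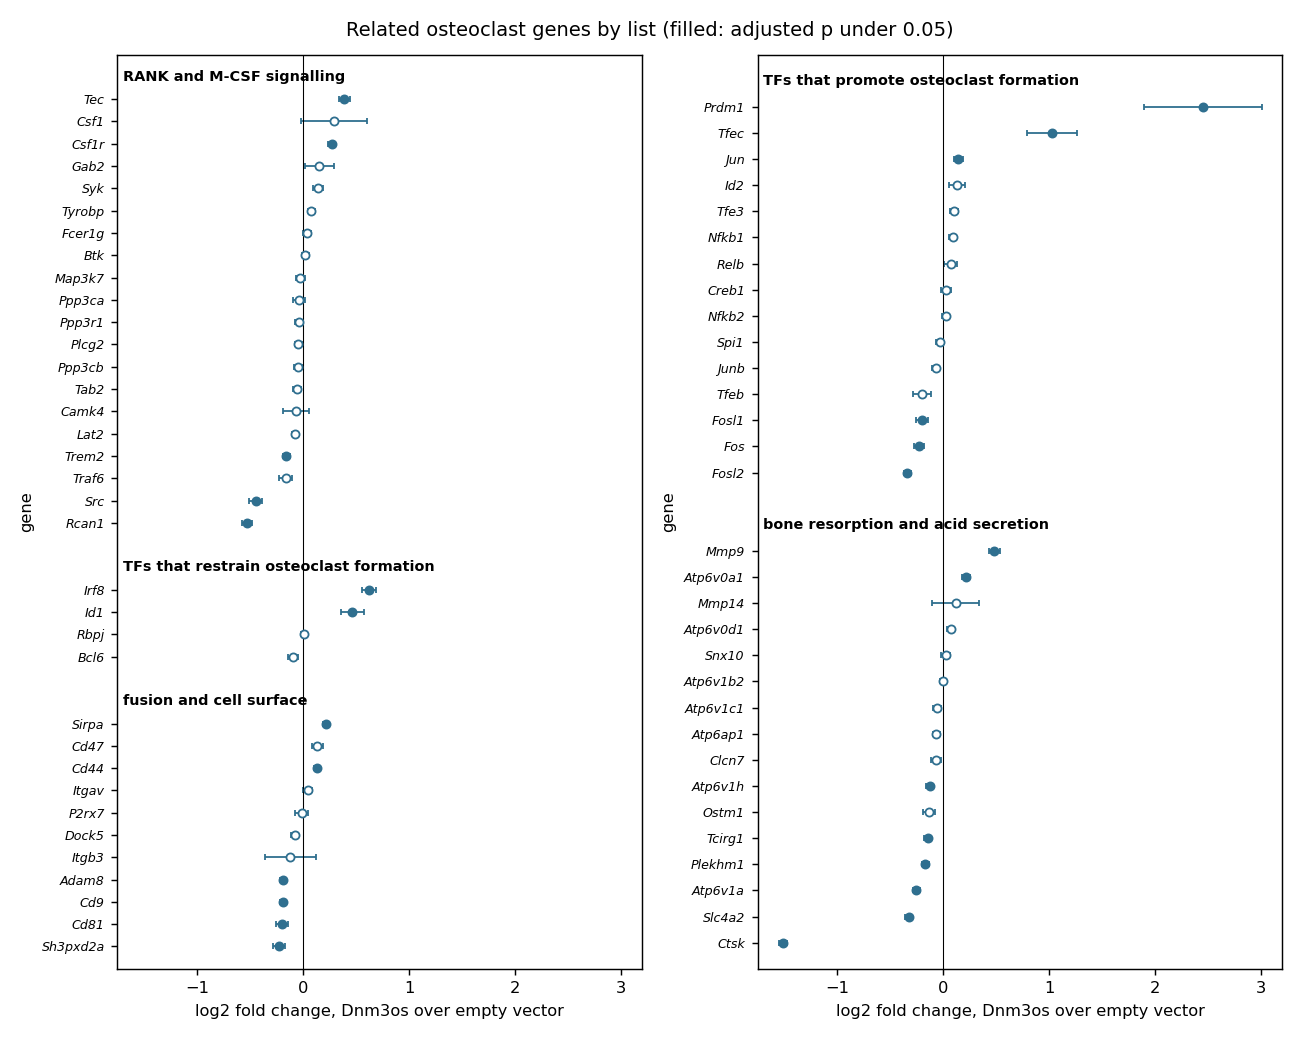
Log2 fold change (Dnm3os over empty vector; horizontal axis) with bars of 1 SE for 66 of the 67 tested genes of 5 role lists, filled where the adjusted p is under 0.05. Ctsk lies lowest at -1.51 and Prdm1, with few counts and a wide bar, highest at 2.45.

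In the list of fusion and cell surface genes, 6 of 11 tested genes passed the test, 2 of them higher and 4 lower. The tetraspanin Cd9 was 683 ± 13.3 CPM with empty vector and 600.1 ± 8.02 with Dnm3os (-0.19 ± 0.03), and the metalloprotease Adam8 was 629 ± 8.56 and 554 ± 4.67 CPM (-0.18 ± 0.03), both called lower. The tetraspanin Cd81 (-0.20 ± 0.06) and Sh3pxd2a, a scaffold of cell protrusions (-0.23 ± 0.05), also fell. Neither was called by DESeq2 (adjusted p = 0.201 and 0.0884) or without Dnm3os library 1, nor was Cd81 without empty vector library 2 or Dnm3os library 2, or with isoforms summed (adjusted p = 0.0512 by edgeR). Sirpa, which binds Cd47 during fusion, rose by 0.22 ± 0.03 and the adhesion receptor Cd44 by 0.13 ± 0.03, the latter not called without empty vector library 2 or Dnm3os library 1. Itgb3, the integrin chain of the osteoclast vitronectin receptor, was low, at 56, 57, 48 and 40 counts, and did not pass (adjusted p = 0.846 by edgeR). Leaving out Dnm3os library 1 left 1 gene higher and 2 lower, and DESeq2 called 2 lower.

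Of 16 bone resorption and acid secretion genes, 2 rose, 6 fell and 8 did not pass. By DESeq2, and also with isoforms summed, 5 were called lower. The genes called lower that are not named here had smaller falls than those named. Ctsk was at 207 and 221 CPM with empty vector and at 75.9 and 74.3 CPM with Dnm3os, a fall of 64.9% (-1.51 ± 0.04; adjusted p = 3.93e-18 by edgeR) and larger than that of any of the 10 genes. Slc4a2, the anion exchanger that balances acid secretion, fell from 188 ± 1.17 to 150.3 ± 3.00 CPM (-0.32 ± 0.03), and the proton pump subunit Atp6v1a from 488 ± 24.6 to 409.9 ± 2.40 CPM (-0.25 ± 0.03). Mmp9, a gelatinase abundant in osteoclasts, rose from 44.5 ± 3.17 to 62.1 ± 1.28 CPM (0.48 ± 0.05 with adjusted p = 3.62e-07 by edgeR). The subunit Atp6v0a1 also rose (0.22 ± 0.04), while the d1 subunit gene Atp6v0d1, the widely expressed counterpart of Atp6v0d2, had a value of 0.071 ± 0.035 and did not pass (adjusted p = 0.232 by edgeR). Trem2, Fosl1, Jun, Cd81, Sh3pxd2a, Atp6v0a1 and Atp6v0d1 were named after their values were seen.

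**Figure D5:**
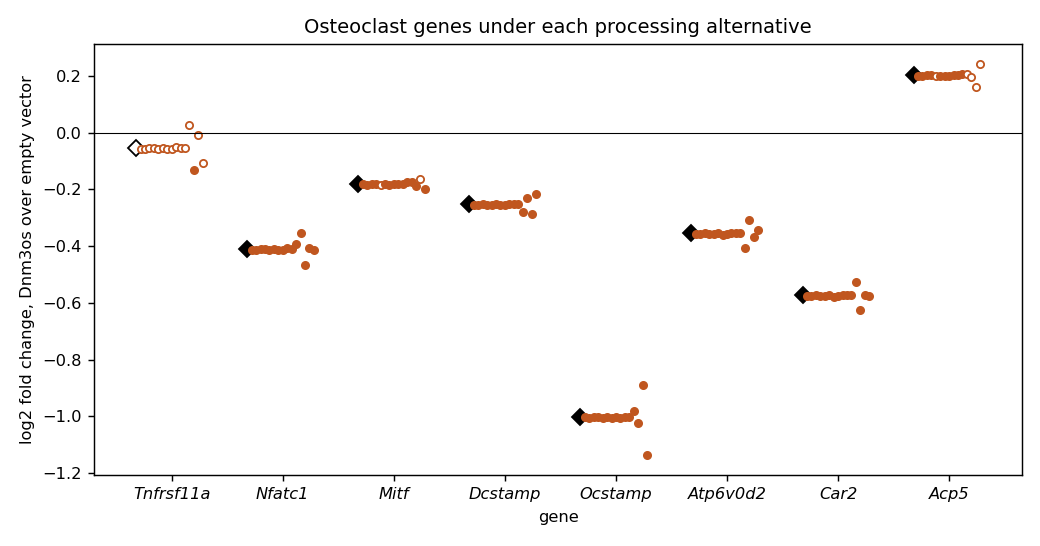
Log2 fold change (vertical axis) of each tested osteoclast gene in the analysis reported (black diamonds) and under 15 alternatives (circles), filled where the adjusted p is under 0.05. Nfatc1, Dcstamp, Ocstamp, Atp6v0d2 and Car2 stay below 0 and filled throughout; Tnfrsf11a lies on both sides of 0.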

How the data were processed

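The authors deposited, per the file headers, a raw-count and a normalized column for 35786 RefSeq transcripts in each of 4 libraries. The raw column holds whole-number read counts. The second is a signal that the authors scaled, the raw count times 1 constant per library (checked on every transcript), and served only as an alternative scaling. Per the labels, poly(A) RNA was sequenced on Illumina instruments; the submitters' processing notes name TopHat, Bowtie2, DESeq2 and mm9. How reads were counted, and whether by strand, is not given in the sources used here.

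Transcripts were named from RefSeq (35499) and GENCODE (178) tables; 109 stayed unnamed. The transcript with the highest mean count stood for its gene, and the 45S ribosomal RNA precursor was left out. Genes passing filterByExpr (13172) were scaled with TMM and tested, two-sided, by the robust quasi-likelihood F test of edgeR 4.0.16 (glmQLFit, glmQLFTest) in R 4.3.3, adjusted by Benjamini-Hochberg over all of them at a threshold of 0.05. The SE was obtained by dividing the size of the log2 fold change by the root of F. The fit was tested on simulated data. Alternatives included DESeq2 1.42.0 and limma-voom (limma 3.58.1).

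The 10 genes and the lists were chosen with earlier results of these data known. Named by rule were the 10 genes, Dnm3os, Ctsk, Mmp9, Itgb3, Csf1r, Traf6, Spi1, Irf8, up to 4 called genes per list with the smallest adjusted p, and the 3 genes most like the member with the smallest adjusted p and the member with the highest mean CPM, not scaled for length; 2 genes that the rule names are not reported here. No coordinates of the counted features are given, since the reference is of another build.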

Additional observations from a re-analysis of the deposited data

How the results depend on the processing

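Of 120 values of the 8 tested genes over 15 alternatives, 111 kept their direction and their side of the threshold; Nfatc1, Dcstamp, Ocstamp, Atp6v0d2 and Car2 did so throughout. The members higher, 1 in the main analysis, were 0 by DESeq2 (0 at an unadjusted p under 0.05) and 0 with any 1 library left out, and the members lower were 5 to 7. Related genes higher were 7 by DESeq2 and 7 to 11 with 1 library left out. DESeq2 called 386 genes higher and 339 lower in all; with 1 library left out these were 465 to 808 and 396 to 786. With 1 library left out, Tnfrsf11a ranged from -0.13 to 0.025, above 0 without empty vector library 1, and Itgb3 from -0.37 to 0.12, above 0 without Dnm3os library 2. The cause was not tested. Where 1 library is left out, the remaining one of its group is assumed to vary as the other group does. All changes among the 120 values came from these fits and from DESeq2. Several other alternatives altered only the scaling. They could change little, since the TMM factors of the main analysis already lay between 0.997 and 1.003. Equal numbers in the titles are not said to pair libraries, and deviations of same-numbered libraries correlated at -0.201 over 9978 genes. With the number as a replicate block, 6 members were lower and 1 higher, related genes were 16 lower and 13 higher, and all genes 782 lower and 868 higher; the crossed pairing, chosen after seeing the data, gave 945 lower and 1054 higher. Oscar, with 1 to 4 counts per library, entered the fit with no filter and that of DESeq2 only, and Calcr, with 0, entered none.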
